A study of Mus musculus with 6 samples.

Results

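The 35 genes described here are a module fixed by name: 15 glycolytic enzyme genes, and 20 other targets of the hypoxia-inducible factors (HIF) that encode transporters, regulators of glucose use, oxygen sensors and hypoxia response proteins. Each was matched to the row of the same symbol in the count tables. All 35 reached 1 CPM (the usual read count scaled by library size) in at least 1 library, so none was dropped, and they stand among 14810 genes that did so, out of 25793 listed.

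The libraries were made from mouse embryonic fibroblasts, primary cultures of E13.5 embryos kept in DMEM/F12 medium with 10% fetal bovine serum, and 1 library was sequenced for each of 6 genotypes. These were wild type (WT), Sptbn1 +/- and Sptbn1 -/- knockouts, SMAD3 +/- and SMAD3 -/- knockouts, and a cross that was heterozygous for both genes (Sptbn1 +/-; SMAD3 +/-), called the double heterozygote below. Sptbn1 encodes beta-II spectrin, a membrane skeleton protein that also acts as an adaptor for SMAD3, and SMAD3 carries TGF-beta signals to the nucleus. No agent and no change of oxygen is named in the labels, and strain and number of embryos per library are not given in the sources used here. Levels are given in this order throughout: WT, Sptbn1 +/-, Sptbn1 -/-, Smad3 +/-, Smad3 -/-, double heterozygote. The question put to the module was whether its genes stand at other levels in the mutant libraries than in WT.

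Glycolysis converts glucose to pyruvate in the cytosol, and lactate dehydrogenase and monocarboxylate transporters dispose of the product as lactate. When oxygen is plentiful, prolyl hydroxylases mark the HIF alpha subunits for destruction by the VHL ubiquitin ligase; when it is scarce, the alpha subunits pair with ARNT and bind hypoxia response elements near their target genes. In cultured fibroblasts HIF targets include glucose transporters, most glycolytic enzymes, the collagen prolyl hydroxylases and secreted factors such as VEGF.

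Counts on genes ranged from 6856680 to 31125055 per library. As a check of the labelled cell type, 10 fibroblast markers, none at 0 in any library, summed to between 17350 and 47653 CPM. The sum hides single markers. In the library labelled Smad3 -/-, 8 of the 10 lay below WT and 2 above, where 7195 of all 14810 genes lay below. Dcn was at 55.2 CPM there, against 1301 CPM in WT. Markers of other cell types were detected too: 12 macrophage and leukocyte markers summed to 63.8 CPM in the library labelled Smad3 -/- and to between 1494 and 2372 CPM in the other 5, and 7 neural and glial markers to between 93.2 and 519 CPM. The sums for 6 endothelial and 8 red cell markers reached at most 14.7 and 3.74 CPM. Skeletal muscle markers (8 genes) summed to 67.5, 23.7, 55.0, 139, 136 and 39.9 CPM. Epithelial markers (6 genes) summed to 8.76, 5.74, 7.62, 22.9, 37.6 and 3.12 CPM. The part of these markers' cells in the members' values was not tested. Spnb2, the older symbol of Sptbn1, stood at 1419, 1071, 771, 1556, 1022 and 695 CPM, so the library labelled Sptbn1 -/- kept 54.3% of the WT level and lay above the double heterozygote. Smad3 stood at 53.3, 57.7, 57.2, 79.5, 106 and 203 CPM, which runs against the labels. All libraries, also those named without the word, are therefore called as labelled, and a direction tied to a genotype is one of labels. In the library labelled Smad3 +/-, Xist was at 2747 CPM against 16.3 CPM or less in the others. That library therefore held female cells, and whether all its cells were female was not examined. In the libraries labelled Smad3 -/- and double heterozygote, 80.1% and 81.2% of uniquely placed reads lay on genes, against 40.9 to 43.3% in the other 4, and the ribosomal RNA gene Rn18s was at 349 and 1529 CPM against at least 64661 CPM. This difference in library make-up and the genotype cannot be told apart, and it touches every comparison below that includes these 2 libraries.

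Every genotype is a single library, so no difference has a replicate check. Each pair of libraries was compared by the ratio of scaled counts with its exact Clopper-Pearson 95% interval, given in parentheses, which covers counting error only. A gene is called higher or lower where the whole interval lies beyond 1.5-fold. All 5 comparisons with WT share the WT library.

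Few members, and few of all genes, were called against WT in the Sptbn1 libraries. The libraries labelled Smad3 -/- and double heterozygote held many calls, of members and of all genes. Members were called in both directions in the first of these and only higher in the second. These 2 libraries also had the most counts on genes, 21329087 and 31125055. In the library labelled Sptbn1 +/-, 0 of 35 members were called higher and 0 lower, against 0.635% and 1.2% of all genes tested. In Sptbn1 -/-, 1 member was higher, Ddit4, and 0 were lower, against 0.648% and 0.412% of genes. In the library labelled Smad3 +/-, 1 member was higher and 4 were lower, against 1.64% and 4.46% of genes, and all 5 belonged to the 20 other HIF targets. In the library labelled Smad3 -/-, 8 were higher and 14 lower, against 24.2% and 25.2%. In the double heterozygote, 18 were higher and 0 were lower, against 21.6% and 19.1%.

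Per kilobase of exon in WT, the members ranged from Gapdh at 0.257 CPM and Car9 at 0.806 CPM to P4ha1 at 57.1, Vegfa at 58.6, Aldoa at 137 and Ldha at 247 CPM. The highest of the 6 libraries was 1.34 times the lowest for Ldha, 11.0 times for Tpi1, 19.4 times for Car9 and 20.03 times for Adm. Within the 4 libraries of lower share on genes the same ratios were 1.17, 1.44, 1.26 and 2.42, so most of the spread of Tpi1, Car9 and Adm, though not of Ldha, lay in the libraries labelled Smad3 -/- and double heterozygote.

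The glycolytic and the other members parted in the library labelled Smad3 -/-. There, 6 of 15 glycolytic enzymes were higher and 2 lower, with a median log2 ratio to WT of 0.68, while 2 of 20 other HIF targets were higher and 12 lower, with a median of -0.92. Of all genes tested, 24.2% were higher and 25.2% lower there, and their median was 0.05. In the double heterozygote both groups had medians above WT, at 0.72 and 1.04, against 0.06 over all genes. There, 7 of 15 glycolytic enzymes and 11 of 20 other HIF targets were higher and 0 lower, against 21.6% and 19.1% of all genes. In the library labelled Smad3 +/- the medians were -0.21 and -0.45, against 0.01. In Sptbn1 +/- they were -0.12 and -0.28, and in Sptbn1 -/- 0.04 and 0.08, with medians over all genes of -0.01 and 0.00. Intervals were also widened by the scatter that the fit to labelled mutant alleles, given below, left over among all 6 libraries. The calls then fell to Tpi1 higher and Eno2 lower in the library labelled Smad3 -/- and Adm higher in the double heterozygote. The other libraries then had 0. At a 2-fold bound, Adm remained higher in the library labelled Smad3 +/- and 0 were lower there.

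**Figure D1:**
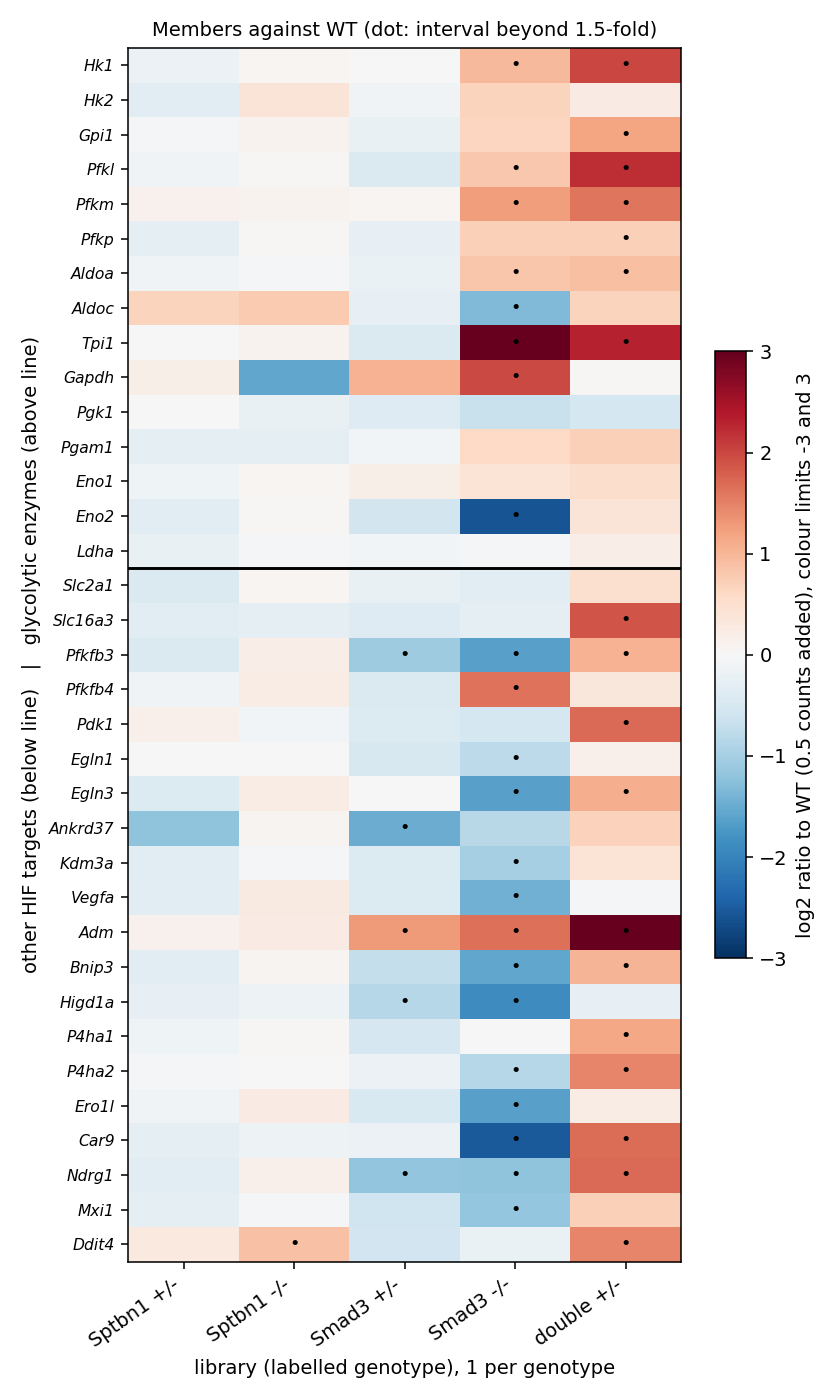
Log2 ratio to WT of each of the 35 genes (rows) in the 5 mutant libraries (columns, labelled genotype, 1 library each), with glycolytic enzymes above the black line and other HIF targets below it. Colours are limited to -3 and 3, and a dot marks an interval that lies wholly beyond 1.5-fold. The double heterozygote column holds 18 dots, all on red, while the column labelled Smad3 -/- holds 8 on red and 14 on blue.

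The upstream sequences of 9 members, picked after their values were seen, are shown as examples: Adm and Car9 had the widest ranges over the 6 libraries, Bnip3, Egln3, P4ha1, P4ha2 and Ankrd37 were also highest in the double heterozygote, and Tpi1 and Eno2 moved farthest up and down among the glycolytic enzymes in the library labelled Smad3 -/-. Capitals mark the core of the hypoxia response element, ACGTG or GCGTG, on either strand, so the reverse forms CACGT and CACGC are capital too and a CACGTG counts as 2 overlapping matches. Each run is the 250 bases before the start site in RefSeq, build GRCm38.p6, written 5′ to 3′ on the gene's strand. The positions are chr7:110627407-110627656, plus strand for Adm; chr4:43506776-43507025, plus strand for Car9; chr7:138909507-138909756, minus strand for Bnip3. They are chr8:45999851-46000100, minus strand for Ankrd37; chr10:59323046-59323295, plus strand for P4ha1; chr11:54100674-54100923, plus strand for P4ha2. The others are chr12:54203875-54204124, minus strand for Egln3; chr6:124814159-124814408, minus strand for Tpi1; chr6:124769674-124769923, minus strand for Eno2.
Adm: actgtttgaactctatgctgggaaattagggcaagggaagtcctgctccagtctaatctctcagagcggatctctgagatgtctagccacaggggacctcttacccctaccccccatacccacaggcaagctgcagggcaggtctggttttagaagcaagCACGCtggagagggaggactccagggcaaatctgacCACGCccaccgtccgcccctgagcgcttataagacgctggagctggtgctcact
Car9: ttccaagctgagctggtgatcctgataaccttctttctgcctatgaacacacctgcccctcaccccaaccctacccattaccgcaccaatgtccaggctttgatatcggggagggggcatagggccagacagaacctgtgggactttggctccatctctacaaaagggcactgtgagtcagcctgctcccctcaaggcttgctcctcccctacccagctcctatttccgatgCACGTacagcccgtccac
Bnip3: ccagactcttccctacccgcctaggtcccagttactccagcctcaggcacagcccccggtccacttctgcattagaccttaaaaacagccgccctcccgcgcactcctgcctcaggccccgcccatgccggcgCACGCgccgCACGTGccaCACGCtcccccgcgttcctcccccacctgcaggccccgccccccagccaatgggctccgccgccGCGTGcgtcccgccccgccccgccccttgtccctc
Ankrd37: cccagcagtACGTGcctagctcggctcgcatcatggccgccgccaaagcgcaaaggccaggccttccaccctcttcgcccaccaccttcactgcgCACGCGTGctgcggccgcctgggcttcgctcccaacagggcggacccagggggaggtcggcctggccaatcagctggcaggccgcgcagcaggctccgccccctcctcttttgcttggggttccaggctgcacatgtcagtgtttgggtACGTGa
P4ha1: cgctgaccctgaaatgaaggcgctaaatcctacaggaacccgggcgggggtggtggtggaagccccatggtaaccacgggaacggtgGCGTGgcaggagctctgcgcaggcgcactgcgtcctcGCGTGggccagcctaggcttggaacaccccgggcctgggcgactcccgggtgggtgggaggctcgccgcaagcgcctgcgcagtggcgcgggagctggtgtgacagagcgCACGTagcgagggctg
P4ha2: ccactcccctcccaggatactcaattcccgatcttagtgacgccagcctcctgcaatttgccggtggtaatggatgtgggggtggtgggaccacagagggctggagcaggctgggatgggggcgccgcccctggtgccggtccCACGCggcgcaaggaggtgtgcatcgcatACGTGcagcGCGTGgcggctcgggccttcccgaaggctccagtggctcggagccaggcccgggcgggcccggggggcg
Egln3: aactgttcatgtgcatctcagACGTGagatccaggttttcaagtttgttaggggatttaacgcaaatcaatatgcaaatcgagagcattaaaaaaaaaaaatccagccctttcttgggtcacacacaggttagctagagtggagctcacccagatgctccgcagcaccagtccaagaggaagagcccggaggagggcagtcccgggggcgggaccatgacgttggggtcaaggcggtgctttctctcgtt
Tpi1: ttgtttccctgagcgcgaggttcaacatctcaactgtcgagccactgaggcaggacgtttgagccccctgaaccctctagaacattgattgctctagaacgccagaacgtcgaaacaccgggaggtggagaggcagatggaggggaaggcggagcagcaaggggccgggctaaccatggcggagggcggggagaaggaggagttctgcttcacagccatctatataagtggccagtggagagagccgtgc
Eno2: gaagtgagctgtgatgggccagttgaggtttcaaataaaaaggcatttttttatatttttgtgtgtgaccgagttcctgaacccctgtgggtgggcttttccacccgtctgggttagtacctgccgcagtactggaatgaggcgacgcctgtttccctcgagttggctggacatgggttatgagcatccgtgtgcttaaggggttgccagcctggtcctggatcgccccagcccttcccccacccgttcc

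These 250 bases held 5 matches for Bnip3, 4 for Ankrd37, 3 each for P4ha1 and P4ha2, 2 for Adm, 1 each for Car9 and Egln3 and 0 for Tpi1 and Eno2. Over windows of 300 bases that also take in the first 50 of the transcript, 34 of 35 members were matched in the RefSeq table with 51 start sites. Of these windows 78.4% held at least 1 match, against 43.8% of the 32851 windows of all genes, and the shares were 76.0% for glycolytic enzymes and 80.8% for other HIF targets. The motif holds a CG pair, and the members' windows held a median of 20 CG pairs against 7 over all windows. The counts describe letters in the reference, not bound sites, and no match says only that these letters are not in this window. Bnip3 and Ankrd37 have the most matches of the 9 and did not share a call: Bnip3 was 2.03-fold higher in the double heterozygote, whereas the interval of Ankrd37 (1.22 to 2.19) did not clear the 1.5-fold bound.

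Entry into glycolysis starts with the glucose transporter Slc2a1 (GLUT1) and the hexokinases Hk1 and Hk2, which trap glucose as its phosphate. Slc2a1 was at 154, 114, 162, 132, 123 and 216 CPM, and the double heterozygote, at 1.40-fold (1.33 to 1.48) over WT, was the highest library without reaching the call. Hk1 was at 56.4, 50.2, 58.3, 56.7, 111 and 224 CPM. The first 4 libraries lay close together, the library labelled Smad3 -/- was 1.97-fold (1.81 to 2.16) above WT and the double heterozygote 3.98-fold (3.67 to 4.32). Hk2, the isozyme more often named as a HIF target, was at 85.1, 67.9, 111, 79.7, 136 and 100.4 CPM and was called in no comparison with WT. Its highest ratio, 1.60-fold (1.49 to 1.72), was in the library labelled Smad3 -/-.

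Hk1 and Hk2 catalyse the same step, and a share of reads within 1 library does not depend on scaling between libraries. Of the reads on these 2 genes, Hk1 took 39.8% in WT (exact binomial 95% interval 37.4 to 42.3), 34.5 to 42.5% in both Sptbn1 libraries and the one labelled Smad3 +/-, and 44.9% (43.6 to 46.2) in the one labelled Smad3 -/-. In the double heterozygote the share was 69.1% (68.2 to 70.0), so Hk1 had passed Hk2 there and in none of the other 5 libraries. These are shares of reads, and Hk1 has the longer exon sequence. Per kilobase of exon, Hk1 was at 26.3 and Hk2 at 16.8 CPM in the double heterozygote, against 6.60 and 14.3 in WT.

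The next enzymes, Gpi1 and the phosphofructokinases Pfkl, Pfkm and Pfkp, lead up to and catalyse the committed step of the pathway. Pfkl, the liver-type subunit, was at 94.9, 87.6, 96.7, 70.2, 167 and 439 CPM. The double heterozygote stood apart from all other libraries, at 4.63-fold (4.35 to 4.93) over WT, and the library labelled Smad3 -/- at 1.76-fold (1.64 to 1.89). Pfkm, the muscle type, was at 18.1, 19.7, 19.3, 18.8, 43.0 and 54.9 CPM, an even level in 4 libraries with the last 2 above them, at 2.38-fold (2.04 to 2.78) and 3.04-fold (2.63 to 3.54) over WT. Pfkp, the platelet type, was 1.64-fold (1.51 to 1.79) higher in the double heterozygote, and Gpi1, the isomerase that feeds these enzymes, 2.27-fold (2.13 to 2.43) higher. In the library labelled Smad3 -/- these 2 genes had ratios of 1.63 (1.5 to 1.78) and 1.57 (1.47 to 1.69), which did not clear the bound. Pfkl took 54.3% of the phosphofructokinase reads in WT (52.1 to 56.5), 53.7% in the library labelled Smad3 -/- (52.6 to 54.9) and 73.7% (73.1 to 74.3) in the double heterozygote. Pfkm took 10.3% (9.02 to 11.75) in WT and 13.8% (13.0 to 14.6) in the library labelled Smad3 -/-. That interval overlapped those of Sptbn1 +/-, at 12.4% (10.5 to 14.6), and the library labelled Smad3 +/-, at 13.3% (11.6 to 15.1). The split thus shifted towards Pfkl in the double heterozygote, while the higher Pfkm share was not particular to the library labelled Smad3 -/-. The Gpi1 value is less certain, since 15.8% of its 50-base words lie in other genes.

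Aldolase and triosephosphate isomerase split fructose bisphosphate and interconvert its products. Aldoa, the main aldolase of fibroblasts, was at 509, 474, 493, 441, 900.3 and 952 CPM, so that the last 2 libraries formed an upper pair at 1.77-fold (1.72 to 1.82) and 1.87-fold (1.82 to 1.93) over WT. Aldoc, the brain-type aldolase, was at 6.72, 10.6, 11.7, 5.62, 2.67 and 10.7 CPM and ran the other way in the library labelled Smad3 -/-, 2.52-fold lower (1.77 to 3.60). Tpi1 on chromosome 6, whose promoter is printed above, was at 48.9, 48.9, 52.5, 36.3, 400 and 241 CPM. The 4 low libraries and the 2 high ones did not overlap: Tpi1 was 8.17-fold (7.50 to 8.92) higher than WT in the library labelled Smad3 -/- and 4.92-fold (4.51 to 5.37) in the double heterozygote. It was the 1 glycolytic enzyme that the library labelled Smad3 -/- held above each of the other 5 by more than 1.5-fold, which 8.55% of all genes did. Within the 4 libraries of lower share on genes, the library labelled Smad3 +/- was the lowest for Tpi1, at 0.743 (0.650 to 0.848) of WT.

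In the later steps Pgk1, Pgam1, Eno1 and Ldha were called in no comparison with WT. Pgk1, phosphoglycerate kinase on chromosome X, was at 75.0, 75.5, 64.1, 57.8, 47.0 and 52.5 CPM and was the only glycolytic member below WT in all 3 labelled Smad3 mutants, at ratios of 0.770 (0.692 to 0.856), 0.627 (0.572 to 0.687) and 0.699 (0.643 to 0.761), none of them called. Of its 50-base words, 53.9% also lie in other genes, and the library labelled Smad3 +/- is the one with high Xist. Pgam1, phosphoglycerate mutase, was at 28.8, 23.7, 23.3, 26.9, 43.8 and 47.4 CPM with no call against WT. Its level is uncertain too, since 36.2% of its 50-base words lie in other genes. Ldha, which regenerates NAD by making lactate, was the steadiest member: its levels were 816, 700.2, 786, 766, 796 and 936 CPM, and the highest was 1.34 times the lowest. Gapdh was counted at 0.299 to 4.35 CPM, with a call of 4.10-fold (2.24 to 8.21) in the library labelled Smad3 -/-. Of the Gapdh 50-base words, 25.1% are shared with 223 other genes, while Pgk1, with 53.9%, stood at 47.0 to 75.5 CPM. Why Gapdh was counted so low was not tested, and its level is uncertain. The same limit holds wherever Gapdh enters the ranges and counts of members.

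The enolases differed by isozyme. Eno1, the general form, was at 116, 106, 121, 130, 154 and 168 CPM with no call. The Eno1 level and the enolase shares below are less certain, since 26.0% of its 50-base words lie in other genes. Eno2, the form best known from neurons, was at 87.4, 70.1, 89.5, 59.9, 14.4 and 115 CPM. That labelled Smad3 -/- was far below all other libraries, 6.07-fold lower (5.35 to 6.91) than WT, and was below each of the other 5 by over 1.5-fold, which 10.5% of all genes were. Eno2 took 42.9% (40.9 to 45.0) of enolase reads in WT, 31.5% (29.4 to 33.6) in the library labelled Smad3 +/-, 8.53% (7.66 to 9.46) in the one labelled Smad3 -/- and 40.5% (39.5 to 41.6) in the double heterozygote. Neural and glial markers did not follow Eno2 from library to library. The 7 of them summed to 227, 214, 275, 170, 519 and 93.2 CPM, with 0 higher and 4 lower than WT in the library labelled Smad3 +/-, 3 higher and 3 lower in the one labelled Smad3 -/-, where Gfap was at 0 counts, and 0 higher and 6 lower in the double heterozygote. Their part in the Eno2 and Aldoc values was not tested. In bulk RNA, fewer cells of a type and less RNA per cell cannot be told apart.

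**Figure D2:**
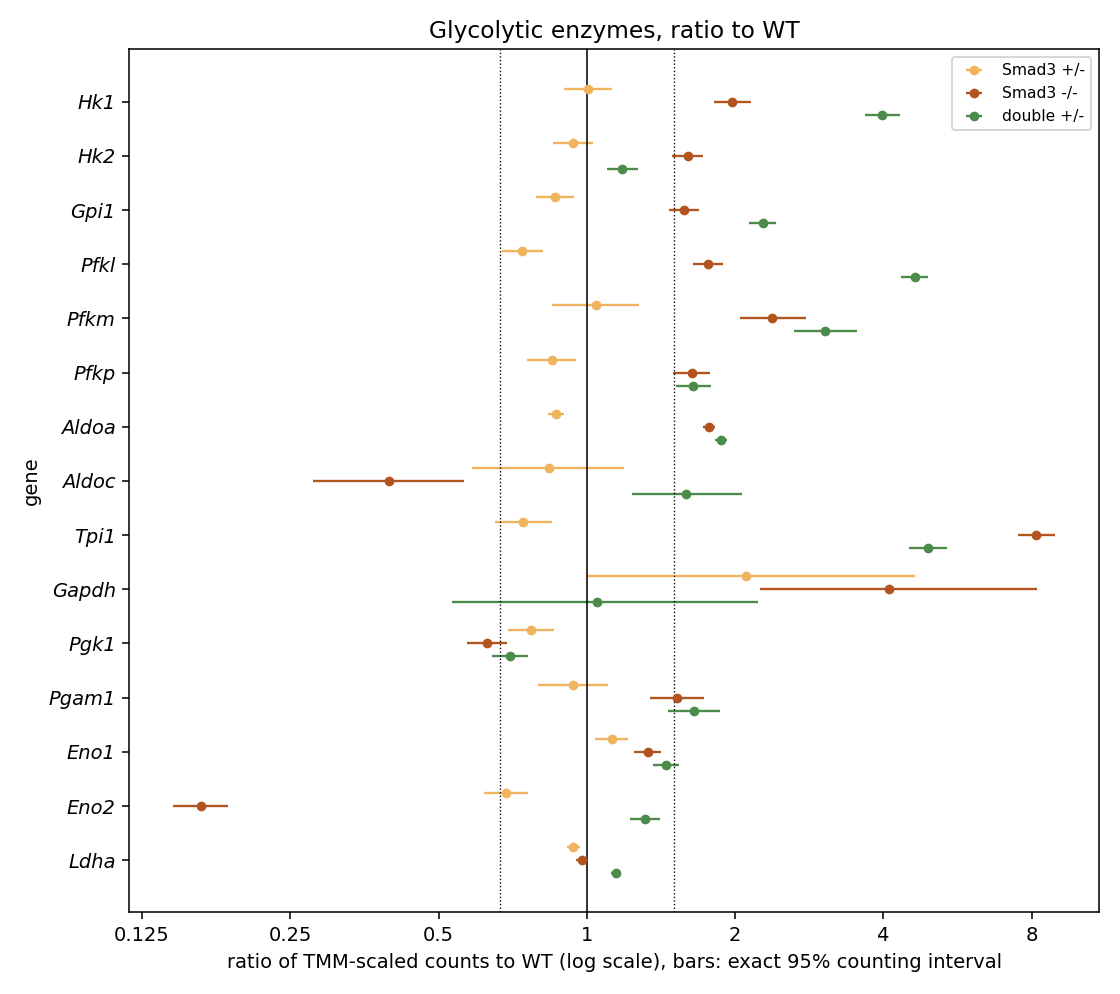
Ratio of scaled counts to WT (log axis) for the 15 glycolytic enzymes in the libraries labelled Smad3 +/-, Smad3 -/- and double heterozygote, with exact 95% counting intervals as bars and dotted lines at 1.5-fold in either direction. Most genes from Hk1 to Tpi1 lie to the right for the last 2 libraries, Pgk1 lies left of 1 for all 3, and Eno2 lies at 0.165 for the library labelled Smad3 -/-.

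Among the HIF targets that steer pyruvate and lactate, the double heterozygote stood alone. Slc16a3 (MCT4), the lactate exporter, was at 76.5, 61.7, 64.0, 58.1, 63.5 and 284 CPM, even across 5 libraries and 3.70-fold (3.45 to 3.98) over WT in the double heterozygote. Pdk1, the kinase that shuts pyruvate out of the mitochondrion, had the same shape, at 49.0, 54.3, 46.6, 36.9, 34.1 and 159 CPM, 3.24-fold (2.97 to 3.55) higher. Both were called in no other library against WT. Slc16a3 in the library labelled Smad3 -/- had a ratio of 0.829 (0.762 to 0.904) and Pdk1 one of 0.695 (0.622 to 0.777).

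The bifunctional enzymes Pfkfb3 and Pfkfb4 set the level of fructose-2,6-bisphosphate, the activator of phosphofructokinase, and in the library labelled Smad3 -/- they were called in opposite directions. Pfkfb3 was at 75.9, 56.5, 86.7, 36.4, 24.7 and 158 CPM. It was 2.08-fold lower (1.84 to 2.36) than WT in the library labelled Smad3 +/-, 3.08-fold lower (2.76 to 3.43) in the one labelled Smad3 -/- and 2.08-fold higher (1.93 to 2.23) in the double heterozygote. Pfkfb4 was at 6.02, 5.60, 7.02, 4.46, 18.7 and 7.71 CPM, with the library labelled Smad3 -/- alone at the top, 3.10-fold (2.40 to 4.07) over WT. Pfkfb4 took 43.1% (39.9 to 46.3) of the reads on this pair in that library, 4.66% (4.11 to 5.27) in the double heterozygote and 7.34 to 10.9% in the others.

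The oxygen sensors Egln1 (PHD2) and Egln3 (PHD3) hydroxylate HIF alpha and are themselves HIF targets. Egln1 was at 143, 143, 144, 102, 82.5 and 158 CPM, and only the library labelled Smad3 -/- was called, 1.73-fold lower (1.62 to 1.85). Egln3 had a wider range, at 19.9, 14.9, 23.2, 19.9, 6.40 and 42.4 CPM. The library labelled Smad3 -/- was 3.11-fold lower (2.51 to 3.86) than WT and the double heterozygote 2.13-fold higher (1.85 to 2.47), with the other 4 between them. The Egln3 share of reads on the pair was 12.2% (10.8 to 13.8) in WT, 7.19% (6.10 to 8.41) in the library labelled Smad3 -/- and 21.2% (20.2 to 22.2) in the double heterozygote.

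Ankrd37 encodes an ankyrin repeat protein and Kdm3a a histone H3 lysine demethylase. Ankrd37 was at 5.22, 2.21, 5.53, 1.84, 2.93 and 8.47 CPM, and was called only in the library labelled Smad3 +/-, 2.83-fold lower (1.67 to 5.04). Of its exon sequence, 349 bases overlap Lrp2bp on the other strand and the counting's strand setting was not stated in the sources used here, so its level is uncertain. Kdm3a was at 92.5, 73.3, 90.7, 69.6, 46.7 and 122 CPM, lowest and called 1.98-fold lower (1.82 to 2.16) in the library labelled Smad3 -/-.

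The secreted factors did not move together. Adm, the vasodilator peptide adrenomedullin, was at 16.4, 17.8, 19.3, 39.5, 51.4 and 328 CPM. WT and both Sptbn1 libraries were level, and the other 3 exceeded WT, at 2.42-fold (2.03 to 2.89), 3.14-fold (2.68 to 3.68) and 20.03-fold (17.3 to 23.3). Per kilobase of exon, Adm went from 10.1 CPM in WT to 202 CPM in the double heterozygote, where among members only Ldha (283) and Aldoa (257) were higher. Vegfa, the main angiogenic factor, was at 251, 203, 301, 188, 91.7 and 241 CPM: it was 2.74-fold lower (2.59 to 2.90) in the library labelled Smad3 -/- and at a ratio of 0.959 (0.918 to 1.00) in the double heterozygote.

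Bnip3 and Higd1a act at the mitochondrion, the former as a receptor for mitophagy and the latter in respiratory chain assembly. Bnip3 was at 76.5, 61.3, 81.1, 46.4, 26.0 and 156 CPM. Lowest was the library labelled Smad3 -/-, 2.94-fold lower (2.64 to 3.27) than WT, and the double heterozygote the highest, 2.03-fold higher (1.89 to 2.19). Higd1a was at 30.6, 25.8, 27.6, 17.0, 8.26 and 25.7 CPM, with WT the highest library. It was 1.80-fold lower (1.5 to 2.18) in the library labelled Smad3 +/-, 3.70-fold lower (3.09 to 4.45) in the one labelled Smad3 -/- and at a ratio of 0.841 (0.740 to 0.956) in the double heterozygote. Both values carry a limit, since 47.2% of the 50-base words of Bnip3 and 24.4% of those of Higd1a lie in other genes.

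Collagen and secretory proteins are the third branch of the HIF response in fibroblasts. P4ha1 and P4ha2 are the catalytic subunits of the collagen prolyl hydroxylase, and their promoters above each hold 3 motif matches. P4ha1 was at 235, 214, 241, 167, 236 and 526 CPM, level with WT in the library labelled Smad3 -/- at a ratio of 1.00 (0.957 to 1.05) and 2.24-fold (2.15 to 2.33) higher in the double heterozygote. P4ha2 was at 164, 159, 166, 144, 90.3 and 448 CPM, 1.81-fold lower (1.70 to 1.93) and 2.74-fold higher (2.61 to 2.88) in the same 2 libraries. P4ha2 thus took 27.7% (26.7 to 28.7) of the pair's reads in the library labelled Smad3 -/-, against 41.0% (39.6 to 42.5) in WT and 46.0% (45.4 to 46.6) in the double heterozygote. Ero1l, the oxidase that forms disulfides in the endoplasmic reticulum, was at 139, 131, 166, 101, 44.9 and 164 CPM, and was 3.11-fold lower (2.87 to 3.37) in the library labelled Smad3 -/- and at 1.17-fold (1.11 to 1.24) in the double heterozygote. Fibroblast markers moved in the same directions as P4ha2, with 2 of 10 higher and 7 lower in the library labelled Smad3 -/-, while the double heterozygote had 5 higher and 1 lower. Their part in these values was not tested.

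The remaining targets are a pH regulator and stress genes. Car9, carbonic anhydrase IX, was near the detection floor, at 1.86, 1.47, 1.64, 1.65, 0.311 and 6.02 CPM, and was 5.97-fold lower (2.45 to 16.6) in the library labelled Smad3 -/- and 3.24-fold higher (2.06 to 5.36) in the double heterozygote. Ndrg1, a stress-induced gene, was at 62.5, 49.9, 69.0, 27.5, 27.0 and 203 CPM. The 2 libraries with a Smad3 label alone were level with each other, 2.27-fold (1.98 to 2.62) and 2.32-fold (2.08 to 2.59) below WT, while the double heterozygote was 3.25-fold higher (3.00 to 3.51). Mxi1, a MYC antagonist, was at 37.5, 31.1, 36.6, 24.7, 16.9 and 61.2 CPM and was called in the library labelled Smad3 -/-, 2.22-fold lower (1.93 to 2.56). Ddit4 (REDD1), an inhibitor of mTORC1, was at 43.7, 53.9, 81.0, 29.4, 38.1 and 121 CPM. It was the 1 member called in an Sptbn1 library, 1.85-fold higher (1.64 to 2.10) in Sptbn1 -/-, and was 2.76-fold (2.51 to 3.04) higher in the double heterozygote. That Sptbn1 -/- call did not hold at a 2-fold bound or with the widened intervals.

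**Figure D3:**
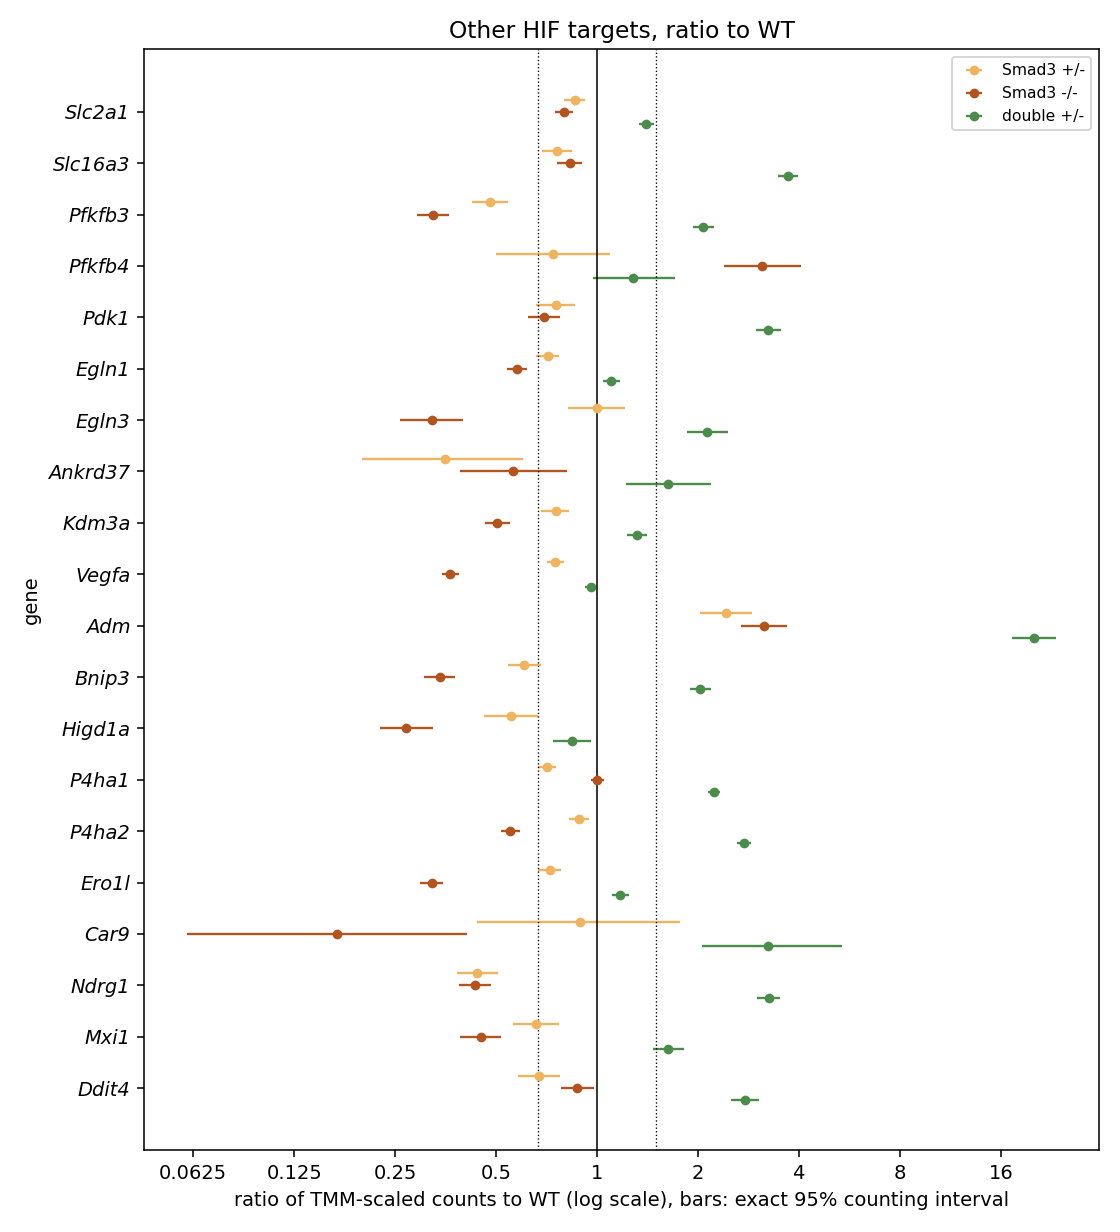
Ratio of scaled counts to WT (log axis) for the 20 other HIF targets in the libraries labelled Smad3 +/-, Smad3 -/- and double heterozygote, with exact 95% counting intervals as bars and dotted lines at 1.5-fold in either direction. Points for the library labelled Smad3 -/- lie mostly left and those of the double heterozygote mostly right of 1. Adm lies right for all 3 libraries, and Pfkfb4 is far right only for the library labelled Smad3 -/-.

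Set side by side, the libraries labelled Smad3 -/- and double heterozygote, which share the higher share of reads on genes, were the most unlike in the HIF targets of the pairs compared. Of this pair, the one labelled Smad3 -/- was lower for 19 of 20 HIF targets and higher for 1, Pfkfb4, with a median log2 ratio of -1.86 against 0.00 over all genes. Among the glycolytic enzymes it was lower for 4 (Hk1, Pfkl, Aldoc and Eno2), higher for 2 (Tpi1 and Gapdh) and the median was -0.16. Over all 35 members that is 3 higher and 23 lower, against 19.8% and 23.4% of all genes tested. The widest gaps were Car9, 19.4-fold lower (9.21 to 48.8), Eno2, 7.96-fold lower (7.10 to 8.95), Ndrg1, 7.52-fold lower (6.92 to 8.18), and Egln3, 6.63-fold lower (5.58 to 7.93). With the widened intervals 7 members stayed lower: Eno2, Pfkfb3, Egln3, Adm, Bnip3, Car9 and Ndrg1. These 2 libraries had similar shares of reads on genes, 80.1% and 81.2%, but other RNA differed between them, with the nuclear RNA Malat1 at 4473 and 335 CPM.

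The order of the 6 libraries, taken from the same scaled counts, restates this split and is no separate evidence. The double heterozygote was the highest library for 26 of 35 members, 10 glycolytic enzymes and 16 other HIF targets, against 26.6% of all genes, and the lowest for 0, against 22.6% of genes. It lay above each of the other 5 libraries by over 1.5-fold for 12 members (Hk1, Pfkl, Slc16a3, Pdk1, Pfkfb3, Egln3, Adm, Bnip3, P4ha1, P4ha2, Car9 and Ndrg1), against 7.13% of genes, and below each for 0, against 4.29%. The library labelled Smad3 -/- was the lowest for 16 members, 3 glycolytic enzymes and 13 other HIF targets, against 30.0% of genes. It lay below each of the others by over 1.5-fold for Eno2, Egln3, Vegfa, Bnip3, Higd1a, Ero1l and Car9, against 10.5% of genes. It was the highest for 4 members, Hk2, Tpi1, Gapdh and Pfkfb4, against 32.3% of genes.

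**Figure D4:**
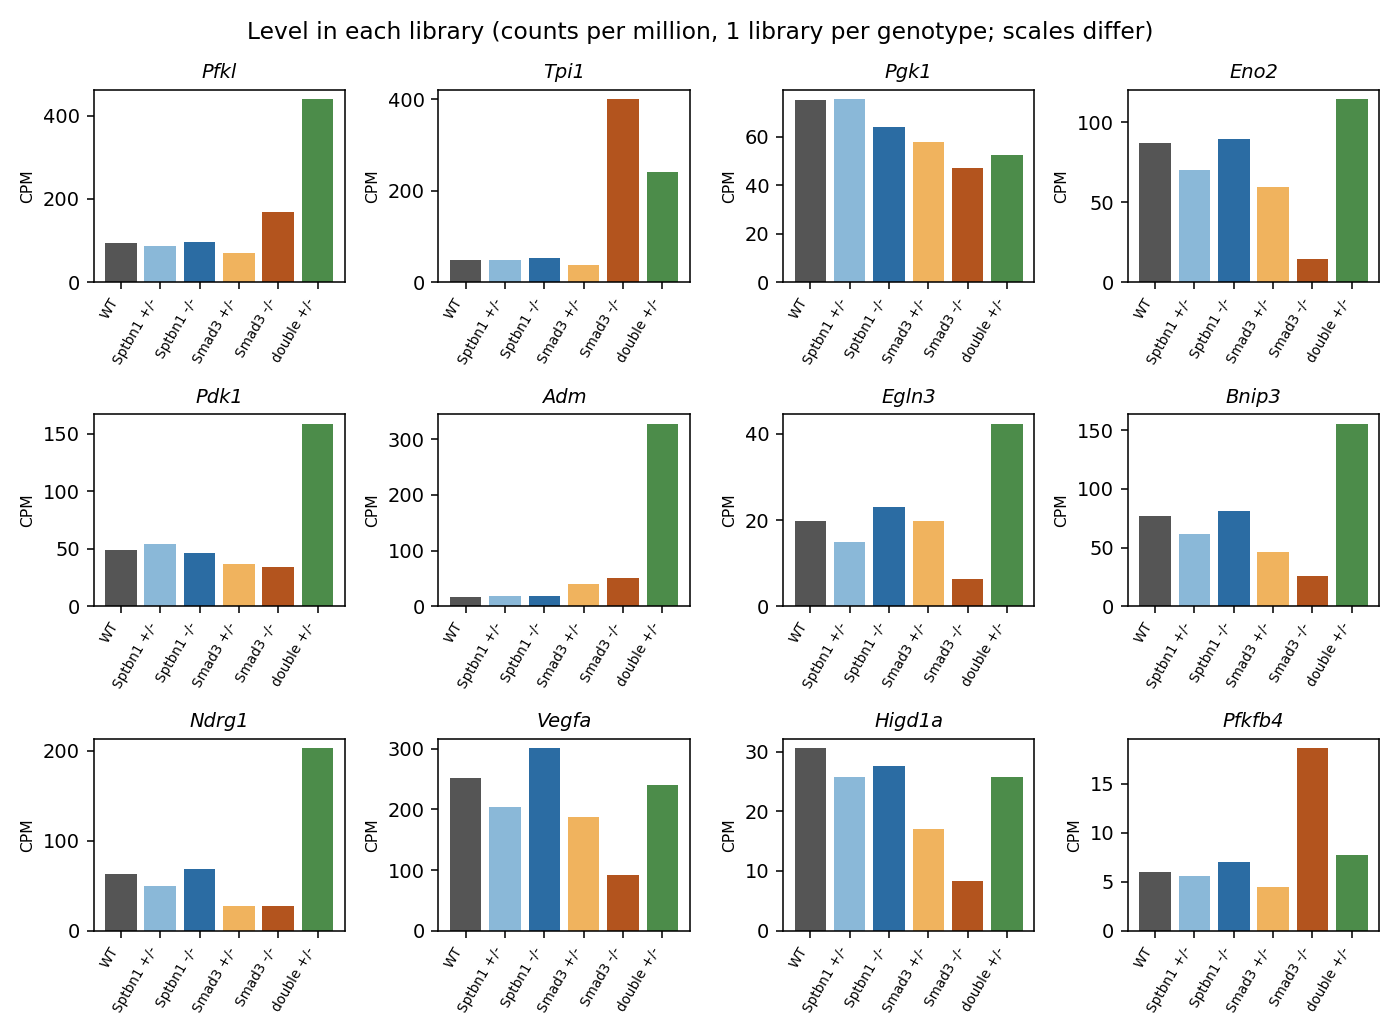
Level in CPM of 12 members in each of the 6 libraries (bars from 0, 1 library per genotype, no error bars because there are no replicates, and a scale of its own for each gene). Pfkl, Pdk1, Adm and Ndrg1 peak in the double heterozygote; Tpi1 and Pfkfb4 peak in the library labelled Smad3 -/-, where Eno2, Egln3, Bnip3, Vegfa and Higd1a are lowest.

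Between the 2 labelled Smad3 knockouts, 9 members were higher and 7 lower in the library labelled Smad3 -/- than in the one labelled Smad3 +/-, against 22.6% and 22.3% of all genes. The 9 higher were 8 glycolytic enzymes and Pfkfb4, with Tpi1 at 11.0-fold (9.92 to 12.2) and Pfkl at 2.38-fold (2.20 to 2.58). The 7 lower were Eno2 and 6 HIF targets, with Car9 5.30-fold (2.09 to 15.1), Egln3 3.11-fold (2.50 to 3.87) and Ero1l 2.25-fold (2.06 to 2.45) lower. Of these 2 libraries only the one labelled Smad3 +/- had Xist at a high level. Between the Sptbn1 -/- and Sptbn1 +/- libraries, 0 members were higher and 0 lower, against 0.925% and 0.378% of genes, with median log2 ratios of 0.14 for glycolytic enzymes and 0.32 for other HIF targets.

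The regulators of the pathway were read next, from a list of 16 genes for HIF subunits and oxygen sensing. For this and the other gene lists, the shares of all genes called higher and lower were 24.2% and 25.2% in the library labelled Smad3 -/-, 21.6% and 19.1% in the double heterozygote, and 1.64% and 4.46% in the one labelled Smad3 +/-. Epas1, which encodes HIF-2 alpha, was at 14.2, 13.8, 11.2, 14.1, 1.29 and 141 CPM. It was 11.1-fold lower (7.41 to 17.0) than WT in the library labelled Smad3 -/- and 9.93-fold higher (8.48 to 11.7) in the double heterozygote. Arnt, the common partner, was 2.49-fold lower (2.31 to 2.68) in the library labelled Smad3 -/-. Hif3a, a HIF subunit with inhibitory forms, had few reads, at 72, 12, 30, 4, 7 and 54 counts (6.37 CPM in WT). It was lower in Sptbn1 +/- (3.60-fold, 1.94 to 7.30) and in the library labelled Smad3 +/- (16.4-fold, 6.15 to 61.9). Hif3a was also lower in the one labelled Smad3 -/- (20.5-fold, 9.45 to 52.8) and in the double heterozygote (3.70-fold, 2.57 to 5.37). Os9, a lectin of the endoplasmic reticulum, was 3.09-fold (2.86 to 3.33) higher in the double heterozygote, and Cited2, which competes with HIF for its coactivator, 2.09-fold (1.84 to 2.38) higher in the library labelled Smad3 +/-. Hif1a, named after its values were seen, was at 556, 539, 584, 532, 431 and 1011 CPM, higher only in the double heterozygote (1.82-fold, 1.77 to 1.87). In all, 4 of the 16 were higher and 3 lower in the library labelled Smad3 -/-, while the double heterozygote had 6 higher and 3 lower, with medians of 0.34 and 0.27.

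A list of 40 further HIF targets had 0 higher and 8 lower in the library labelled Smad3 +/-, 6 higher and 19 lower in the one labelled Smad3 -/-, and the double heterozygote 14 higher and 5 lower. The median log2 ratios were -0.37, -0.78 and 0.32, and 1 gene, Stc1, was lower in Sptbn1 +/- and 0 were called in Sptbn1 -/-. Angptl4, a secreted inhibitor of lipoprotein lipase, was at 15.3, 9.57, 8.37, 2.33, 15.6 and 373 CPM: it was 6.58-fold lower (4.28 to 10.6) in the library labelled Smad3 +/- and 24.4-fold higher (21.0 to 28.5) in the double heterozygote. Ndufa4l2, a mitochondrial protein related to a respiratory chain subunit, was 8.51-fold lower (5.62 to 13.4) in the library labelled Smad3 +/- and 92.8-fold lower (39.2 to 289, from 5 counts) in the one labelled Smad3 -/-. Kdm4b, a histone demethylase, and Pgm2 were 5.16-fold (4.42 to 6.07) and 4.44-fold (4.02 to 4.92) higher in the double heterozygote.

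Further glycolysis genes were measured for 15 of 21 listed. None was called in Sptbn1 +/-, Sptbn1 -/- or the library labelled Smad3 +/-. In the library labelled Smad3 -/- 4 were higher and 3 lower with a median of -0.34, and the double heterozygote had 3 higher and 2 lower with a median of 0.09. Pkm2, the pyruvate kinase gene that completes the pathway, was at 180, 161, 149, 136, 1442 and 652 CPM, 8.03-fold (7.68 to 8.40) and 3.63-fold (3.47 to 3.80) over WT in the last 2 libraries. Slc16a1 (MCT1), another lactate transporter, was 8.20-fold (7.54 to 8.95) higher in the double heterozygote, and Hk3, a hexokinase of blood cells, 14.1-fold lower (9.68 to 21.3) in the library labelled Smad3 -/-. Macrophage and leukocyte markers moved with Hk3: all 12 were lower there, summing to 63.8 CPM against 1494 to 2372 CPM in the other 5 libraries, and their part in the members' values was not tested.

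The pathways that branch from glycolysis were read against the same shares of all genes, 24.2% higher and 25.2% lower in the library labelled Smad3 -/- and 21.6% and 19.1% in the double heterozygote. Of 10 pentose phosphate genes, 6 were higher and 0 lower in the library labelled Smad3 -/-, with a median of 1.22, and the double heterozygote had 4 higher and 0 lower, with a median of 0.45. Tkt, transketolase, was 6.64-fold (6.16 to 7.16) and 2.89-fold (2.67 to 3.12) higher there, and Taldo1, transaldolase, 4.34-fold (3.84 to 4.92) higher in the library labelled Smad3 -/-. Of 13 genes for pyruvate entry into mitochondria, 4 were higher and 1 lower in the library labelled Smad3 -/-, while the double heterozygote had 2 higher and 1 lower. Pdk4, a relative of Pdk1, was 3.46-fold (2.28 to 5.44) and 6.80-fold (4.58 to 10.5) higher. Pdk2 was 4.09-fold lower (2.94 to 5.76) in the library labelled Smad3 -/- and 2.58-fold higher (2.12 to 3.17) in the double heterozygote, the same directions as Pfkfb3, Egln3 and Bnip3. Pcx, pyruvate carboxylase, from a gluconeogenesis list with 3 of 7 genes measured, was 6.01-fold (4.43 to 8.34) and 20.9-fold (15.6 to 28.8) higher. Mitotic markers differed between the 2 libraries, with 8 of 9 higher and 1 lower in the library labelled Smad3 -/-, but 0 higher and 7 lower in the one heterozygous for both, and their part in these values was not tested.

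**Figure D5:**
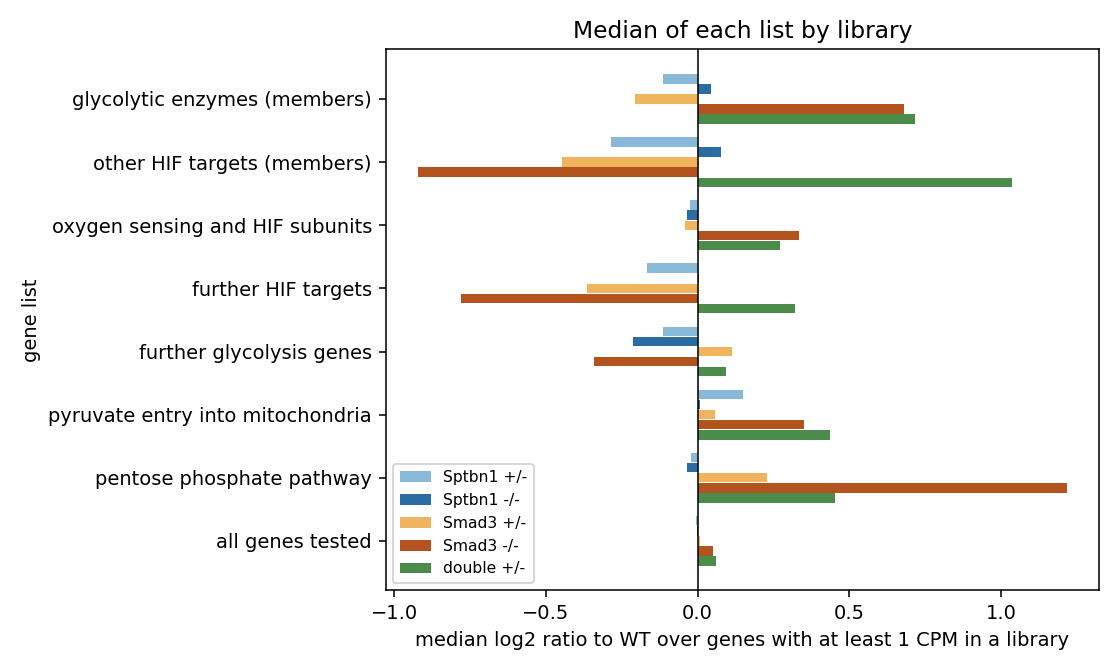
Median log2 ratio to WT (horizontal axis) of each gene list in the 5 mutant libraries (bars, labelled genotype), over genes with at least 1 CPM in a library. The other HIF targets reach -0.92 in the library labelled Smad3 -/- and 1.04 in the double heterozygote, and the further HIF targets -0.78 and 0.32, while the medians over all genes tested stay at 0.06 or less.

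Over samples, the members were tested by a fit to the number of labelled mutant alleles of each gene over all 6 libraries, with 14085 genes and 3 residual degrees of freedom. In edgeR's quasi-likelihood test with Benjamini-Hochberg adjustment over all genes, 0 members passed 0.05 for Sptbn1 alleles and 0 for Smad3 alleles, as did 0.0% of all genes. At an unadjusted threshold of 0.05 there were 0 members for Sptbn1 (21 genes, 0.149%) and 4 for Smad3 (3404 genes, 24.2%): Tpi1, Higd1a, Pfkm and Pgk1. Tpi1 had the smallest adjusted p in edgeR's test, 0.16, with a log2 change of 1.67 (SE 0.44) per labelled Smad3 allele, and the change was -0.41 when only the 4 libraries of lower share on genes were fitted. That fit of 4 libraries passed 1 member for Smad3, Adm, against 2.7% of genes, and 0 members for Sptbn1, against 0.00725%. Higd1a had -0.73 (SE 0.25, adjusted p = 0.18 in edgeR's test). DESeq2's Wald test passed 3 members for Smad3, Adm, Higd1a and Tpi1, against 14.5% of genes, and 0 for Sptbn1.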

How the data were processed

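Total RNA was taken from mouse embryonic fibroblasts with TRIZOL, and 1 ug entered an Illumina TruSeq RNA kit, per the labels' protocols. The authors deposited raw read counts per gene, 1 table per library, unscaled. Named in the submitters' processing notes are the build mm9 and the tools HTSeq, TopHat2 2.0.10, DESeq2, Trimmomatic and FastQC. Their roles, the strand setting and the annotation are not given in the sources used here. The 5 lines that name no gene entered no library size. Reads on no gene made up 11.9 to 32.6% of records and reads placed at several sites 32.5 to 47.1%.

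Library sizes were scaled with TMM (edgeR 4.0.16, limma 3.58.1, R 4.3.3). Ratios and exact intervals (scipy 1.17.1) cover genes that reached 1 CPM in 1 or more libraries. The allele-dose fit needed 1 CPM in 2 or more. Log2 ratios had 0.5 counts added. Exon lengths and shared 50-base words came from GENCODE M21 and promoters from RefSeq, both on GRCm38 and not mm9, so only names, lengths and sequences were used. Alternatives were DESeq2 1.42.0, other scalings, filters, a 2-fold bound, widened intervals, and leaving out libraries. Scripts were tested on simulated data.

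Members and lists were chosen with earlier results of these data known. The text names every member, the targeted genes, and of each other list at most the 3 called genes per comparison with WT whose interval lies farthest from 1-fold.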

Additional observations from a re-analysis of the deposited data

Results flagged for a closer look

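For 3 members the labelled Smad3 mutant allele went with a lower level where Sptbn1 was intact and with a higher level where 1 Sptbn1 allele was mutant. The log2 ratio of the double heterozygote to the Sptbn1 +/- library minus that of the library labelled Smad3 +/- to WT was 2.53 for Pfkfb3, 3.37 for Ankrd37 and 3.21 for Ndrg1. Each was called lower in the first background and higher in the second. Pfkfb3 was 2.79-fold (2.51 to 3.10), Ankrd37 3.84-fold (2.28 to 6.95) and Ndrg1 4.07-fold (3.65 to 4.55) higher in the double heterozygote than in Sptbn1 +/-. In that comparison 23 of 35 members were higher and 0 lower, against 21.1% and 18.3% of all genes. It was added after the data were seen, and the difference between the backgrounds was not tested, since each rests on 1 library per genotype. Over all genes tested, 0.885% showed this pattern and 0.209% the opposite one, and 0 members showed the opposite one. The double heterozygote differs from the other 3 libraries in its share of reads on genes, and the library labelled Smad3 +/- in its high Xist level. Neither difference can be told apart from genotype here.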

How the results depend on the processing

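No paired analysis was possible because there is 1 library per genotype and the labels carry no replicate numbers. With DESeq2 size factors, total counts, scaling without small RNA genes, no filter or a minimum of 5 CPM, each count of members called stayed within 1.5 times its value, and scaling moved the median of all genes by at most 0.0999 on the log2 scale. At a 2-fold bound the count higher was 0 in Sptbn1 -/-, the count lower was 0 in the library labelled Smad3 +/-, and the one labelled Smad3 -/- had 5 higher and 9 lower than WT, and 3 higher and 4 lower than the one labelled Smad3 +/-. The intervals were next widened by the scatter that the allele-dose fit left over among all 6 libraries (coefficient of variation 0.467, 3 residual degrees of freedom). That scatter is what the fit does not follow, not replicate variation, and it was 0.333 without the double heterozygote. The counts were then 0 higher in Sptbn1 -/- and 0 higher and 0 lower in the library labelled Smad3 +/-. They were 1 higher and 1 lower in the one labelled Smad3 -/-, and 1 higher in the double heterozygote. The library labelled Smad3 -/- then had 1 higher and 0 lower than the one labelled Smad3 +/-, and 0 higher and 7 lower than the double heterozygote. A further widening used the scatter that the same fit left over among the 4 libraries of lower share on genes. Its coefficient of variation was 0.112, with 1 residual degree of freedom, and it was added after seeing the data. The counts were then 0 higher in Sptbn1 -/- and 2 lower in the library labelled Smad3 +/-. For the one labelled Smad3 -/- they were 5 higher than WT, and 4 higher and 4 lower than the one labelled Smad3 +/-. Wider intervals by construction give fewer calls. The shares of all genes called at the 2-fold bound or with wider intervals were not counted. Leaving out each library in turn, the members changed per allele were 0 to 0 for both genes, and so were all genes, so these fits say nothing about stability. At an unadjusted p under 0.05 in edgeR's test, 17 members passed for Smad3 alleles without the double heterozygote, as did 4448 of 13920 genes. With all 6 libraries 4 members passed, as did 3404 of 14085 genes. Without the double heterozygote 15 members had a positive and 20 a negative estimate, against 22 and 13. Coding carriers against non-carriers also passed 0 members for either gene. Unadjusted, 2 members passed for Sptbn1 (123 of 14085 genes) and 4 for Smad3 (1481 of 14085 genes). Fitted on the 4 libraries alone (1 residual degree of freedom, added after seeing the data), 1 member passed for Smad3, Adm (log2 change 1.27, adjusted p = 0.0148 in edgeR's test), against 2.7% of genes, and Tpi1 turned to -0.41 (adjusted p = 0.22). DESeq2's Wald test passed 3 members. The cause of these differences was not tested. Depth limits Car9, Ankrd37 and Gapdh most, since they have the fewest counts.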
